A study of Homo sapiens with 8 samples.

Results

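The BCL2 family decides at the outer membrane of mitochondria whether a cell starts apoptosis. BCL2, BCL2L1, MCL1 and BCL2L2 encode survival proteins, BAX and BAK1 encode the proteins that form pores in that membrane, and BID, BAD, BCL2L11 and PMAIP1 encode BH3-only proteins, which bind the others and tip the balance towards death. Survival proteins hold the pore formers and the BH3-only proteins in check, and prostate cancer cells are known to draw on them to survive treatment. The members described here are the count rows whose GENCODE symbol is one of these names, 10 of 58735 gene identifiers in each file, of which 4 encode survival proteins and 6 encode pro-apoptotic proteins. All 10 were found once, and all 10 passed the filter on low counts.

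Total RNA was sequenced from 22Rv1, an established human castration-resistant prostate cancer cell line. The labels name a MARK3i group of 4 libraries, from cells given PCC0208017, a compound the submitters describe as an inhibitor of the kinase MARK3, and a Control group of 4 libraries, from cells given the solvent DMSO. The sources used here give neither dose nor duration, nor whether the libraries came from separate cultures, so p-values measure the spread between these libraries, which may be technical. MARK3 activity was not measured, and effects of the compound on MARK3 and on other targets cannot be told apart. The comparison asked which transcripts differed between cells given the compound and cells given solvent.

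Total counts were 13517289 to 21271127 in MARK3i and 12672817 to 13386143 in Control libraries. Epithelial and prostate markers, among them HOXB13, KRT8, KRT18, EPCAM and CDH1, were expressed in every library. HOXB13 was at 351.3 ± 4.10 counts scaled to library size (CPM) in MARK3i and 428.7 ± 14.9 CPM in Control libraries (SD, n = 4 each). KRT18 was also lower in MARK3i than in Control libraries, CDH1 was higher, and the groups overlapped for KRT8 and EPCAM. Of 5 leukocyte markers, CD3E had 0 counts in every library, and their summed level was 0.814 to 1.63 CPM in MARK3i and 0.303 to 0.789 CPM in Control libraries. Of 7 fibroblast and endothelial markers, PECAM1 and CDH5 had 0 counts in every library. The summed level of those 7 was 14.4 to 22.8 CPM in MARK3i and 9.15 to 13.9 CPM in Control libraries, nearly all of it COL1A1. Both groups split on the second principal component, MARK3i replicates 1 and 3 (16.85 and 7) from 2 and 4 (−14.37 and −10.9), and Control replicates 1 and 2 (15.03 and 12.14) from 3 and 4 (−12.02 and −13.74), and no label names a batch. Mitochondrially encoded genes took 6.66% to 7.05% of the counts in MARK3i and 6.43% to 6.61% in Control libraries. The part of these differences in the results below was not tested.

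RefSeq start windows were at hand for 8 of the 10 members, on build GRCh38.p14, and 3 of them are shown because they belong to the pore former that fell and to 2 BH3-only genes that were called in opposite directions. Each run covers the 250 bases before the annotated start, on the plus strand, read 5′ to 3′. GENCODE places the first base of the BAX and BCL2L11 gene models further upstream than the RefSeq start. Capitals mark every match on either strand to any of 6 motifs. The E-box searched, which MYC and its partners bind, was CACGTG. The core of the cAMP response element was TGACGT, and the motif of forkhead factors was TGTTTAC. The CCAAT box was searched under its own letters, the GC box as GGGCGG and the TATA box as TATAAA. No match overlapped another in the windows shown.
The windows are chr19:48954625-48954874 for BAX, chr2:111120664-111120913 for BCL2L11 and chr18:59899746-59899995 for PMAIP1, all on the plus strand.
BAX: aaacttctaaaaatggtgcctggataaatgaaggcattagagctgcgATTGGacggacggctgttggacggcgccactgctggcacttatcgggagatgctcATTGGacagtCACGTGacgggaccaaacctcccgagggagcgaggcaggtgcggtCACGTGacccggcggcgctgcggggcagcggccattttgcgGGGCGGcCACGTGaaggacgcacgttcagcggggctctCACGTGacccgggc
BCL2L11: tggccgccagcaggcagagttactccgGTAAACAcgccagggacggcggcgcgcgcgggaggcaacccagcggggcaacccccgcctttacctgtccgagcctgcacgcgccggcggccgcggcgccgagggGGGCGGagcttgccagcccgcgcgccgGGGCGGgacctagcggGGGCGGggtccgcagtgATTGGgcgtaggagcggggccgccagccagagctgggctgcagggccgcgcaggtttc
PMAIP1: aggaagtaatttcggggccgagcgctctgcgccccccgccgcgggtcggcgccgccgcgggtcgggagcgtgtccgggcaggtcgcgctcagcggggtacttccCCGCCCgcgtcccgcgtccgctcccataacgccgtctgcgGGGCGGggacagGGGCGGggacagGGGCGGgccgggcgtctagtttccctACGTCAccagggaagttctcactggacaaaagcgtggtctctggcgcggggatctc

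The BAX window holds 4 E-boxes, which begin 138, 93, 45 and 14 bases before the start. At least 1 E-box was found in 6.34% of all 35116 RefSeq windows of this length. In 5 of those windows (0.0142%) 4 or more were found. Of the 8 members with windows, 2 had an E-box in at least 1 window (BAX and BID, which both fell). That counts genes, while the shares above count windows. BID has several windows, and some of them held no E-box. The windows of PMAIP1 and BCL2, which also fell, held 0. Since 6 motifs were searched, a rare count of 1 motif is less unusual than its own share. The BCL2L11 window holds 1 forkhead match, 223 bases before the start, a motif found in 2.98% of all windows. The PMAIP1 window holds 1 cAMP response element core, 56 bases before the start (7.1% of all windows), and 4 GC boxes, and 4 or more GC boxes were found in 7.63% of all windows. These matches describe the letters of the reference genome, and binding of any factor was not measured.

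In cells given the compound, the transcript of the survival gene MCL1 rose 1.27-fold and that of the pore former BAX fell 1.67-fold. The transcripts of PMAIP1 (1.501-fold), BCL2 (1.40-fold) and BID (1.21-fold) also fell, and that of BCL2L11 rose 1.14-fold. BCL2L1, BCL2L2, BAK1 and BAD did not pass the test. Changes are log2 fold changes of MARK3i minus Control ± SE with n = 4 libraries per group, and adjusted p-values are from edgeR's quasi-likelihood test, adjusted over all 16452 genes tested. Of these genes 58.0% were called at an adjusted p under 0.05, with 29.8% higher and 28.3% lower, and the median log2 change of all was 0.02. Against that background, 6 of the 10 members (60.0%) were called, with 2 higher, 4 lower and a median log2 change of −0.01, so the share of members called was near that of all genes. The MARK3i and Control libraries did not overlap for 5 of the 10 members, beside 51.0% of all genes tested. In bulk RNA, fewer cells expressing a gene and less of its RNA per cell cannot be told apart. With total counts in place of TMM scaling, the median of all genes was 0.126 and 63.6% of all calls were higher, against 51.3% with TMM, and 3 members were then called higher and 3 lower.

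**Figure D1:**
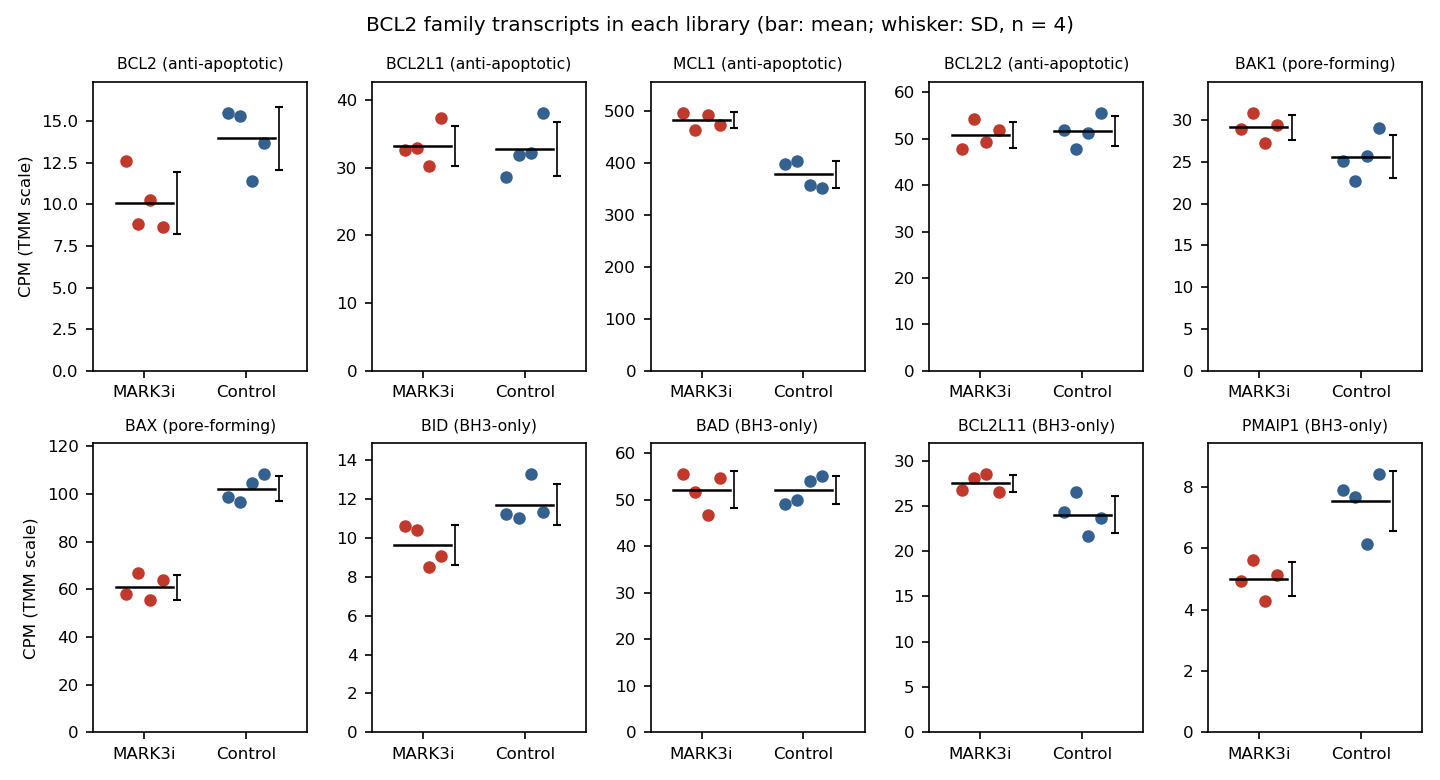
CPM (vertical axes, from 0) of each of the 10 members in the 4 MARK3i libraries (red) and the 4 Control libraries (blue), with lines at the group means and whiskers for the SD. BAX in MARK3i libraries lies between 55.4 and 66.8 CPM, below every Control library, and MCL1 in MARK3i libraries lies above every Control library.

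Among the survival genes, MCL1, which encodes a short-lived protein that holds BAK1 and BCL2L11 in check, was the most abundant. MCL1 (ENSG00000143384; chromosome 1, 150560895 to 150579738, hg38, minus strand) had 496.9, 464.0, 492.8 and 473.6 CPM in MARK3i replicates 1 to 4, against 397.7, 402.9, 358.0 and 352.6 CPM in Control replicates 1 to 4. Every MARK3i library lay above every Control library, as it did for 25.8% of all genes tested, and Control replicates 3 and 4 lay below Control replicates 1 and 2. The log2 change was 0.35 ± 0.06 (adjusted p = 1.05e-05), and MCL1 was called in all 18 alternative settings. These are counts per gene, so the long and the short splice form of MCL1, which are known to act in opposite ways, cannot be told apart.

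BCL2, the founding survival gene of the family, was the least abundant of the 10 per kilobase of exon. BCL2 (ENSG00000171791; chromosome 18, 63123346 to 63320128, minus strand) had 12.6, 8.81, 10.2 and 8.64 CPM in MARK3i replicates 1 to 4, against 15.5, 15.3, 11.4 and 13.7 CPM in Control replicates 1 to 4. The groups overlapped, with MARK3i replicate 1 above Control replicate 3. The log2 change was −0.48 ± 0.13 (adjusted p = 0.00224), it rested on 125 to 196 counts per MARK3i library and 139 to 198 per Control library, and it was called in all 18 alternative settings.

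The other survival genes, BCL2L1 and BCL2L2, gave no detectable change. BCL2L1, which encodes BCL-xL, had 32.6, 32.9, 30.2 and 37.3 CPM in MARK3i and 28.7, 31.8, 32.2 and 38.2 CPM in Control libraries, a log2 change of 0.02 ± 0.09 (95% interval −0.16 to 0.20, adjusted p = 0.854). BCL2L2, which encodes BCL-w, had 47.8, 54.2, 49.2 and 51.9 CPM in MARK3i and 51.8, 47.7, 51.2 and 55.6 CPM in Control libraries, a log2 change of −0.02 ± 0.07 (95% interval −0.17 to 0.12, adjusted p = 0.816). The groups overlapped for both genes. The antisense gene ABALON covers 41.3% of the exon bases of BCL2L1 but had at most 16 counts in any library. BCL2L2 shares 16.8% of its exon bases with the read-through gene BCL2L2-PABPN1, which had 6 to 16 counts in MARK3i and 1 to 7 in Control libraries. Reads in those shared exons may have been left out of both genes, since the sources used here do not say how overlaps were handled.

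Of the pore formers, BAX had the largest change among the 10 members. BAX (ENSG00000087088, chromosome 19, 48954815 to 48961798, plus strand) had 57.9, 66.8, 55.4 and 63.7 CPM in MARK3i replicates 1 to 4, against 98.9, 96.8, 104.8 and 108.4 CPM in Control replicates 1 to 4. Every MARK3i library lay below every Control library, which held for 25.1% of all genes tested. The log2 change was −0.74 ± 0.07 (adjusted p = 1.14e-09), and it lay between −0.79 and −0.62 and was called in all 18 alternative settings. No annotated exon of another gene overlaps those of BAX.

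BAK1, which encodes the other pore former, had 28.9, 30.9, 27.3 and 29.4 CPM in MARK3i and 25.1, 22.7, 25.7 and 29.0 CPM in Control libraries. The groups overlapped through Control replicate 4. The log2 change of 0.19 ± 0.08 did not pass (adjusted p = 0.0607), and its 95% interval of 0.01 to 0.36 is not adjusted for the number of genes. It was called higher in 4 of 18 alternative settings, among them total counts (0.291, adjusted p = 0.0051) and offsets for transcript GC content (0.304, adjusted p = 0.000699).

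Among the 4 BH3-only members, PMAIP1, which encodes NOXA, a protein known to bind MCL1, fell furthest. PMAIP1 (ENSG00000141682; chromosome 18, 59899996 to 59904305, plus strand) had 4.95, 5.62, 4.27 and 5.12 CPM in MARK3i replicates 1 to 4, against 7.91, 7.68, 6.15 and 8.43 CPM in Control replicates 1 to 4. All MARK3i libraries lay below all Control libraries, on 61 to 125 counts per MARK3i library and 75 to 108 per Control library. The log2 change was −0.59 ± 0.14 (adjusted p = 0.00102), and it was called in all 18 alternative settings.

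BID, whose protein links death receptors to mitochondria once it is cut by caspase-8, was lower by a smaller amount. BID (ENSG00000015475; chromosome 22, 17734138 to 17774770, minus strand) had 10.6, 10.4, 8.48 and 9.06 CPM in MARK3i and 11.2, 11.01, 13.3 and 11.3 CPM in Control libraries. The groups did not overlap, though the lowest Control library, replicate 2, lay close to MARK3i replicate 1. The log2 change was −0.27 ± 0.11 (adjusted p = 0.0405). The call ended in 7 of 18 alternative settings, among them DESeq2 (adjusted p = 0.0793) and the omission of Control replicate 3 or 4 or of MARK3i replicate 3 or 4, and the adjusted p reached 0.198 with total counts.

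BCL2L11, which encodes BIM, an activator of BAX and BAK1 that all survival proteins bind, was slightly higher. BCL2L11 (ENSG00000153094; chromosome 2, 111119378 to 111168444, plus strand) had 26.8, 28.05, 28.5 and 26.6 CPM in MARK3i and 24.4, 26.5, 21.6 and 23.6 CPM in Control libraries. The groups did not overlap, but MARK3i replicate 4 and Control replicate 2 were nearly level. The log2 change was 0.19 ± 0.08 (adjusted p = 0.0457). This call ended in 13 of 18 alternative settings (adjusted p up to 0.175), with DESeq2 (0.124) and with any library left out except Control replicate 2. With total counts the change was 0.298 (adjusted p = 0.00385).

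BAD, whose protein binds BCL2 and BCL-xL when it is not held by 14-3-3 proteins, had 55.6, 51.8, 46.8 and 54.8 CPM in MARK3i and 49.2, 50.1, 54.1 and 55.2 CPM in Control libraries. The groups overlapped over most of their range, with a log2 change of 0.00 ± 0.07 (95% interval −0.15 to 0.15, adjusted p = 0.98). With GC offsets BAD was called higher (0.253, adjusted p = 0.00165), and its transcript, at 66.3% GC, had the highest GC content of the 10. BAD shares 23.7% of its exon bases with GPR137 on the opposite strand. GPR137 rose by 0.38 ± 0.07 (adjusted p = 3.22e-05), and the sources used here do not say if reads were assigned by strand.

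**Figure D2:**
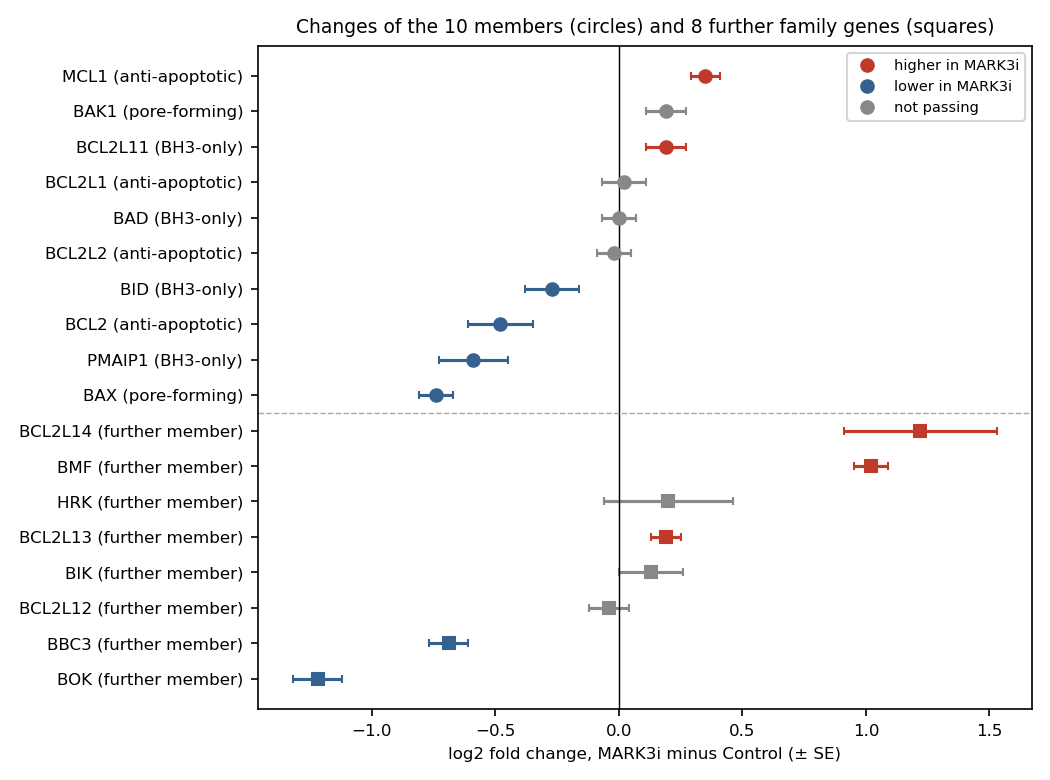
Log2 fold change, MARK3i minus Control, with its SE (horizontal axis) for the 10 members (circles, above the dashed line) and 8 further family genes (squares), coloured by call. The 10 members span −0.74 for BAX to 0.35 for MCL1, and the further genes span −1.22 for BOK to 1.22 for BCL2L14.

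Set against each other, 1 of the 4 survival genes was higher and 1 lower, and 1 of the 6 pro-apoptotic genes was higher and 3 lower, beside 29.8% higher and 28.3% lower of all genes tested. The higher one was BCL2L11, whose call ended in 13 of 18 alternative settings, and 1 of the 3 lower ones was BID, whose call ended in 7. The median log2 change was 0.00 over the survival genes and −0.14 over the pro-apoptotic genes, beside 0.02 over all genes tested. The mean log2 CPM of the 6 pro-apoptotic genes minus that of the 4 survival genes was −1.30, −1.13, −1.35 and −1.24 in MARK3i replicates 1 to 4, against −1.12, −1.14, −1.01 and −1.06 in Control replicates 1 to 4. MARK3i replicate 2 lay within the range of the Control libraries, and the means differed by −0.18. No p is given, since the genes were chosen with earlier results of these data known.

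Levels of different genes were compared per kilobase of exon, as CPM per kilobase on the TMM scale. In MARK3i libraries the order was MCL1 (77.4 ± 2.51 CPM per kilobase), BAD (30.6 ± 2.32), BAX (23.6 ± 2.02), BAK1 (13.2 ± 0.677), BCL2L2 (10.5 ± 0.586), BCL2L1 (7.92 ± 0.703), BCL2L11 (4.07 ± 0.142), PMAIP1 (2.28 ± 0.254), BID (2.18 ± 0.232) and BCL2 (0.799 ± 0.146), with n = 4. Of these neighbours, PMAIP1 and BID had overlapping libraries. In Control libraries MCL1 was also first (60.7 ± 4.21) and BCL2 last (1.11 ± 0.151), but BAX (39.5 ± 2.06) stood above BAD (30.5 ± 1.73). The Control libraries of BAK1 and BCL2L2, of BCL2L11 and PMAIP1, and of PMAIP1 and BID overlapped. The order of BAX and BAD thus differed between the groups, with no overlap of their libraries in either. BAD shares 23.7% of its exon bases with GPR137, and how reads there were assigned is not known. The level of BAD, and so this order, may depend on it.

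Ratios within a library do not depend on its scaling, and the following pairs were chosen after their values were seen. MCL1 over BAX, in CPM per kilobase, was 3.57, 2.89, 3.70 and 3.09 in MARK3i replicates 1 to 4, against 1.67, 1.73, 1.42 and 1.35 in Control replicates 1 to 4. BAX over BAK1 was 1.72, 1.85, 1.74 and 1.85 in MARK3i, against 3.37, 3.64, 3.49 and 3.19 in Control libraries. Neither ratio overlapped between the groups. MCL1 made up 79.0% to 81.3% of the summed level per kilobase of the 4 survival genes in MARK3i and 72.3% to 77.6% in Control libraries. The absolute ratios depend on the exon lengths of GENCODE release 44.

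**Figure D3:**
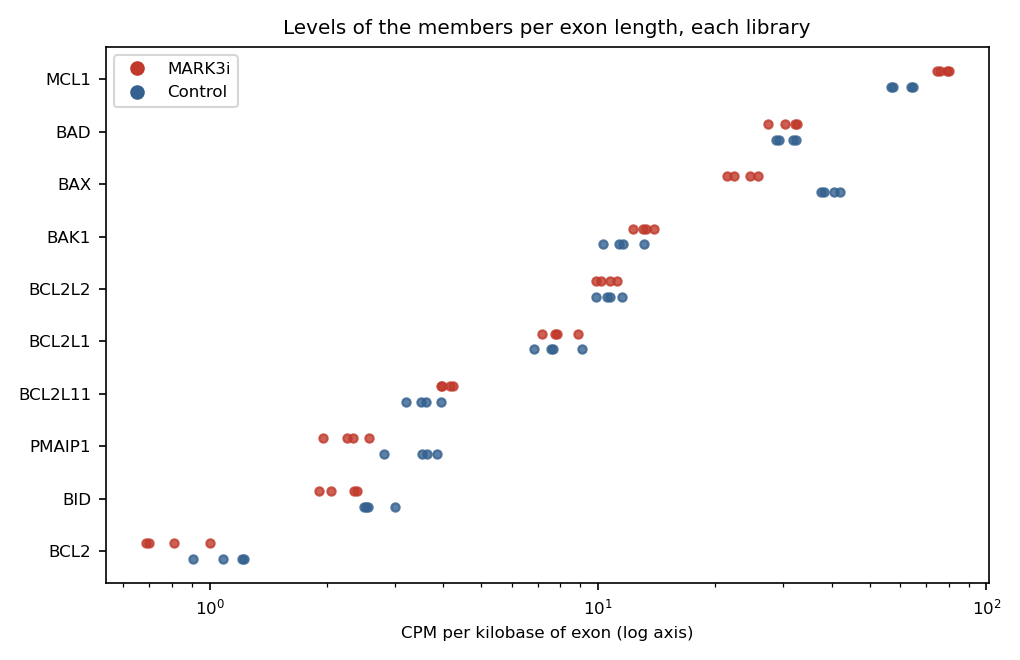
Level of each member per exon length (CPM per kilobase, log axis) in each MARK3i library (red, upper row) and each Control library (blue, lower row). MCL1 leads in both groups, and BAX lies below BAD in MARK3i and above it in Control libraries.

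Alternative settings separated the members into those whose calls held and those whose calls did not. BAX, PMAIP1, BCL2 and MCL1 kept their call in each of the 18 settings. BCL2L1 and BCL2L2 were called in none of them.

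**Figure D4:**
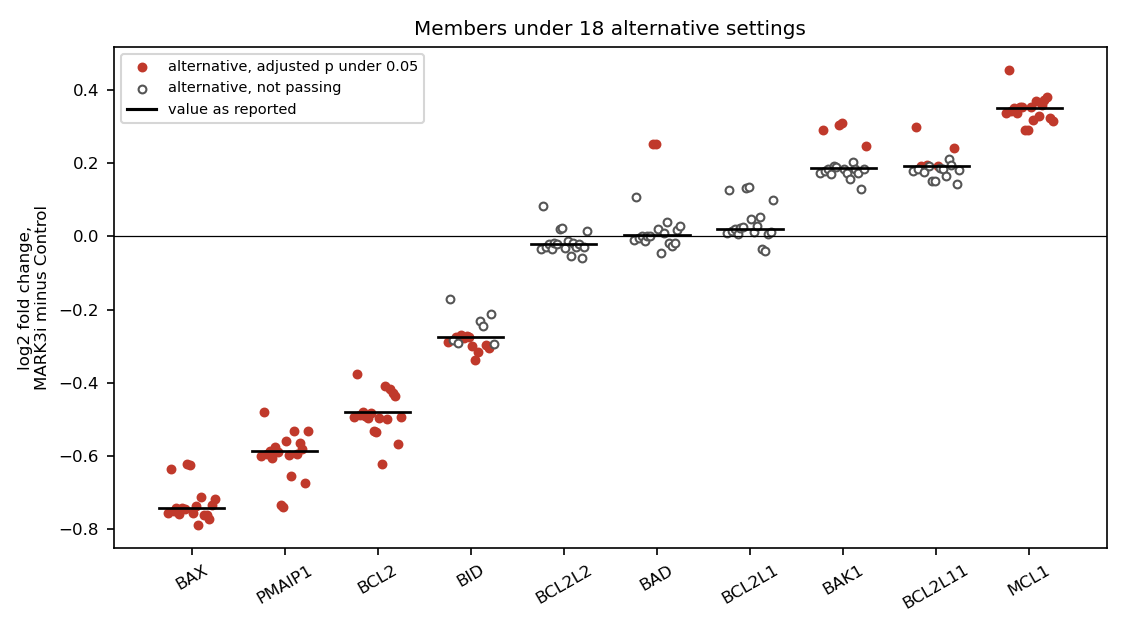
Log2 fold change of each member, MARK3i minus Control (vertical axis), under 18 alternative settings, filled where the adjusted p was under 0.05 and open where it was not, with a line at the value as reported. Points of BAX, PMAIP1, BCL2 and MCL1 are all filled, and those of BID, BCL2L11, BAK1 and BAD are mixed.

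By the fixed rule, the genes most like BAX and PMAIP1 were sought among 10275 genes averaging 10 CPM or more over the 8 libraries, by the root mean square difference of centred log2 CPM over the 8 libraries. Those nearest to BAX were SMYD5 (difference 0.031), DUS1L (0.0331) and SAMD1 (0.036), whose log2 changes were −0.78 ± 0.07, −0.74 ± 0.06 and −0.76 ± 0.07. Those nearest to PMAIP1 were PRAC1 (0.0842), RAB35-AS1 (0.0852) and COX18 (0.104). PMAIP1 had no neighbour as close as those of BAX, and the reason was not tested. PMAIP1 itself averaged 4.99 CPM in MARK3i and 7.54 CPM in Control libraries, so genes at its own level were not searched.

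Beyond the 10, 8 of 11 further family genes passed the filter. Of these 3 were higher, 2 lower and 3 not passing, with a median log2 change of 0.16. The share called was 62.5%, near the 58.0% of all genes tested. The BH3-only gene BMF, whose protein is known to be released from the cytoskeleton under stress, rose 2.03-fold, with 57.0, 67.4, 60.5 and 60.6 CPM in MARK3i replicates 1 to 4, against 32.4, 29.8, 28.9 and 30.2 CPM in Control replicates 1 to 4. All MARK3i libraries lay above all Control libraries (log2 change 1.02 ± 0.07, adjusted p = 1.32e-11). BOK, which encodes a relative of BAX and BAK1, had 13.9, 15.7, 11.3 and 13.8 CPM in MARK3i, against 28.5, 32.6, 33.0 and 34.4 CPM in Control libraries. It fell in every MARK3i library relative to every Control library (−1.22 ± 0.10, adjusted p = 6.65e-11). Both changes exceeded those of all 10 members in size.

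BBC3, which encodes PUMA, had 44.1, 55.8, 45.5 and 49.2 CPM in MARK3i, against 70.9, 73.5, 83.9 and 87.5 CPM in Control libraries. It fell without overlap (−0.69 ± 0.08, adjusted p = 8.38e-08), and by less with GC offsets (−0.386, adjusted p = 3.84e-07), its transcript being 69.7% GC. BCL2L14 rose (1.22 ± 0.31, adjusted p = 0.00147) from few reads, 22 to 65 counts per MARK3i library and 6 to 14 per Control library. BCL2L13, a mitochondrial family member, rose slightly (0.19 ± 0.06, adjusted p = 0.014), with overlapping libraries, and did not pass without MARK3i replicate 1 or Control replicate 4. With total counts its change was 0.291. BIK (0.13 ± 0.13), HRK (0.20 ± 0.26) and BCL2L12 (−0.04 ± 0.08) did not pass, and BCL2L12 shares exons with IRF3 on the opposite strand. BCL2A1, BCL2L10 and BCL2L15 were too low to be tested.

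The caspases, the proteases that carry out apoptosis, were higher in 4 of 6 tested genes and lower in 1, with a median log2 change of 0.65. That is 83.3% called, on 6 genes, beside 58.0% of all genes tested, and over all 55 tested genes beyond the 10 members 65.5% were called. CASP6, an executioner caspase, had 45.0, 45.3, 43.4 and 40.1 CPM in MARK3i, against 25.4, 24.9, 23.3 and 21.5 CPM in Control libraries (0.87 ± 0.08, adjusted p = 7.73e-10). CASP9, which the apoptosome activates, had 30.1, 33.1, 30.5 and 29.4 CPM in MARK3i, against 16.4, 16.2, 17.8 and 19.7 CPM in Control libraries (0.81 ± 0.09, adjusted p = 1.28e-08). The groups overlapped for neither gene. CASP8, outside the rule for named genes and named after its values were seen, also rose. CASP2 fell (−0.19 ± 0.08, adjusted p = 0.0347), but did not pass with total counts (0.389) or without MARK3i replicate 1 or 4 or Control replicate 1, 2 or 3 (0.0511 to 0.15).

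Genes of the proteins that mitochondria release, and of the apoptosome, changed in both directions. Their list also holds VDAC2, outside the naming rule, which encodes a channel of the outer mitochondrial membrane. VDAC2 did not pass (0.07 ± 0.06, adjusted p = 0.273). Of 7 tested, 4 were lower and 1 higher (2 with total counts), with a median of −0.44. In all 71.4% were called, beside 58.0% of all genes tested. CYCS, which encodes cytochrome c, had 332.0, 290.4, 303.0 and 324.1 CPM in MARK3i, against 439.0, 437.0, 419.0 and 403.6 CPM in Control libraries (−0.44 ± 0.06, adjusted p = 2.86e-07). AIFM1, an oxidoreductase of the inner membrane, changed by −0.45 ± 0.05. The nuclease gene ENDOG changed by −0.64 ± 0.06 and shares 40.1% of its exon bases with SPOUT1 on the opposite strand, which itself fell by 1.28 on the log2 scale. With GC offsets the change of ENDOG was −0.351 (adjusted p = 1.71e-06). HTRA2, outside the naming rule, was the other that fell. HTRA2 shares 27.5% of its exon bases with LOXL3 on the opposite strand, which changed by −1.7 ± 0.15. LOXL3 had 35 to 68 counts per MARK3i library and 111 to 138 per Control library. APAF1, the scaffold of the apoptosome, had 42.2, 35.6, 48.4 and 37.4 CPM in MARK3i, against 32.8, 27.4, 24.4 and 27.1 CPM in Control libraries, and rose (0.55 ± 0.10, adjusted p = 4.81e-05).

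Of the inhibitor of apoptosis genes, 1 of 5 tested was called (20.0%, beside 58.0% of all genes tested). By edgeR's quasi-likelihood test at an adjusted p under 0.05, 1 was higher and 0 were lower. That gene was BIRC2, which encodes a ubiquitin ligase of death receptor complexes, with 80.6, 74.7, 75.3 and 72.1 CPM in MARK3i, against 51.5, 49.98, 43.5 and 44.9 CPM in Control libraries (0.67 ± 0.07, adjusted p = 9.87e-09). At an unadjusted p under 0.05, with DESeq2 and with limma-voom, 0 were lower as well. With GC offsets 2 of these genes were higher and 1 lower, and 2 were higher with total counts and without Control replicate 2. XIAP, which binds caspases directly, was at 86.1 ± 4.73 CPM in MARK3i and 85.9 ± 4.66 CPM in Control libraries (SD, n = 4 each).

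In the death receptor pathway 2 of 8 tested genes were higher and 4 lower, with a median of −0.14. Together 75.0% were called, on 8 genes, beside 58.0% of all genes tested. The adaptors RIPK1 (0.55 ± 0.06, adjusted p = 6.64e-08) and TRADD (0.60 ± 0.08, adjusted p = 1.47e-06) rose, without overlap between the groups. The receptor genes TNFRSF10B (−0.43 ± 0.06), TNFRSF10A (−0.38 ± 0.12) and TNFRSF1A (−0.19 ± 0.06) fell. TNFRSF10A did not pass without Control replicate 1 (adjusted p = 0.0595), nor TNFRSF1A without Control replicate 3 (0.0513). With total counts 1 gene of this list was lower, and without Control replicate 1 there were 2. FAS, outside the naming rule, was the other lower gene. The ligand gene FASLG had 0 counts in every library, and TNFSF10 had 1 count in all.

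Transcription factor genes known to act on family members moved in both directions. Of 13 tested, 5 were higher and 5 lower, or 3 lower with total counts. As a list 76.9% were called, beside 58.0% of all genes tested. MYC had 32.1, 30.9, 37.2 and 31.0 CPM in MARK3i, against 379.2, 381.4, 366.3 and 386.3 CPM in Control libraries (−3.53 ± 0.07). E2F1 also fell (−1.42 ± 0.06). FOXO3, a forkhead factor known to act on BCL2L11, had 92.8, 88.4, 94.9 and 85.9 CPM in MARK3i, against 63.4, 60.8, 53.6 and 56.6 CPM in Control libraries (0.63 ± 0.07, adjusted p = 1.44e-08). STAT3, known to act on MCL1, rose by 0.79 ± 0.07 and JUN by 0.73 ± 0.06. FOXO1 and FOXO4 were also higher and ATF4 and RELA also lower, all outside the naming rule.

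Among genes of enzymes that act on the stability of MCL1 or BH3-only proteins, 4 of 8 were higher and 0 lower. These calls are by edgeR's quasi-likelihood test, and the median log2 change was 0.21. The share called, on 8 genes, lay below the 58.0% of all genes tested, of which 29.8% were higher and 28.3% lower. At an unadjusted p under 0.05, with DESeq2 and with limma-voom, 0 of the 8 were lower as well. MARCHF5, a mitochondrial ubiquitin ligase, rose by 0.39 ± 0.07, BTRC by 0.53 ± 0.09, and USP9X, which removes ubiquitin from MCL1, by 0.31 ± 0.07 (adjusted p = 0.000237). With GC offsets MARCHF5 was at 0.256 and USP9X at 0.203, both still called. GSK3B, outside the naming rule, was the other. No protein was measured, so these values do not bear on MCL1 protein.

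**Figure D5:**
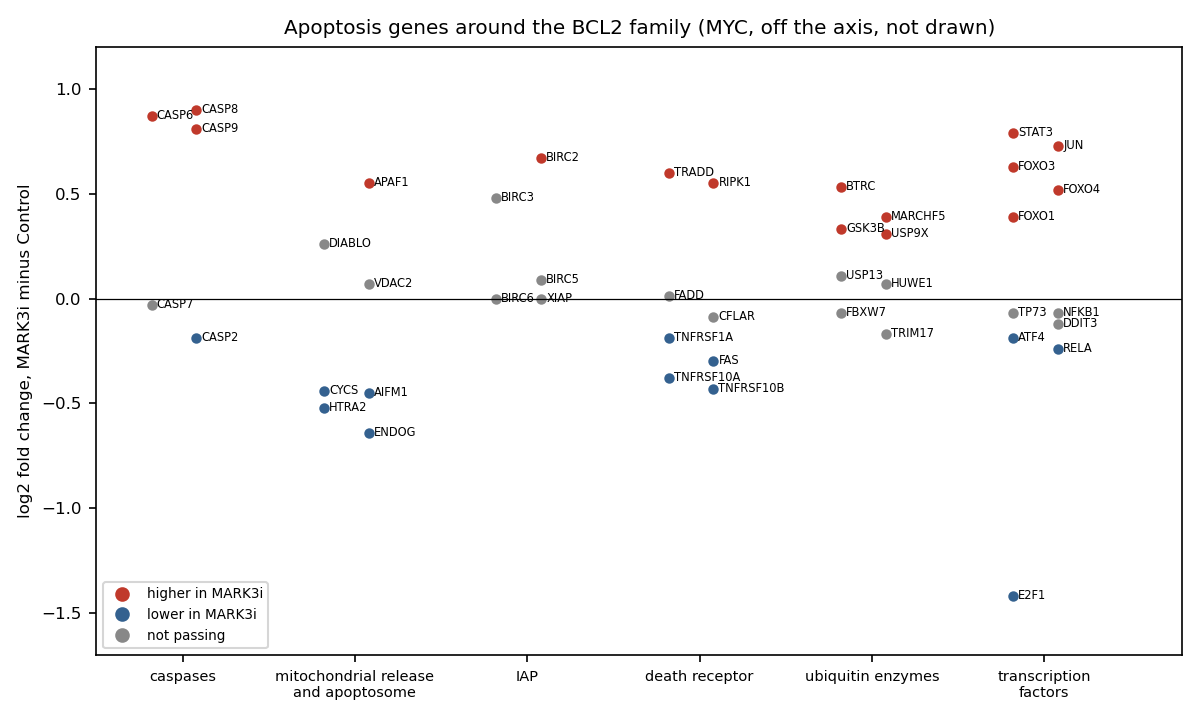
Log2 fold change, MARK3i minus Control (vertical axis), of tested genes of 6 lists around the BCL2 family, coloured by call, with MYC at −3.53 off the axis and not drawn. CASP6, CASP8 and CASP9 lie above 0.8, and CYCS, AIFM1, HTRA2 and ENDOG lie below −0.4.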

How the data were processed

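Each library came as 1 file of integer read counts for every gene. Per the labels, the authors aligned the reads to hg38 and quantified genes with featureCounts before they deposited these counts. The sources used here name no aligner, annotation, strand setting or version. Symbols, coordinates and merged exon lengths were taken from GENCODE release 44 on hg38, which held 58207 of the 58735 identifiers, and 0 lines named no gene.

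The test was edgeR 4.0.16 (R 4.3.3), fitted on the group alone, after filterByExpr and TMM scaling, with robust glmQLFit and glmQLFTest. The common biological coefficient of variation was 7.2%, and the median SE of a log2 change was 0.0957. The SE is the absolute change divided by the square root of F, and intervals use the t distribution with the degrees of freedom of the test. The fit was also run on simulated counts with known changes. Those counts gave every gene the same biological variation and changed few genes, so that run cannot show how well calibrated the calls here are. CPM are on the TMM scale, marker sums excepted.

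Within groups, pairs of libraries differed by 1.67 to 8.86 chi-square per degree of freedom, above the value near 1 that sampling noise alone gives. Control replicates 1 and 2 (1.69) and 3 and 4 (1.67) were closer than the other Control pairs (3.19 to 4.24). Whether any shared a culture is not known. Members and gene lists were chosen with earlier results of these data known. The rule for names took all 10 members, all tested further family genes, and up to 3 called genes per direction of every other list, by p. Genes described as outside that rule were named after their values were seen. The 18 alternatives were RLE scaling, total counts, no filter, a filter asking for 1 CPM in 4 libraries, limma-voom (limma 3.58.1), DESeq2 1.42.0, the replicate number as a block, GC offsets, both together, thinning to the lowest total, and each library left out. Counting error limits the genes with few reads. Some genes counted in the lists are not reported here by name.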

Additional observations from a re-analysis of the deposited data

Results flagged for a closer look

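Of 84 groups of 4 libraries examined for a value far from the other 3, 4 held one, and chance gives about 1 in 20. Control replicate 3 had 13.28 CPM of BID, against 11.2, 11.01 and 11.31 CPM in Control replicates 1, 2 and 4, and without it the change of BID was −0.213 and did not pass (adjusted p = 0.147). MARK3i replicate 1 had 6.623 CPM of BIK, against 8.765, 8.407 and 8.643 CPM in the other MARK3i libraries. MARK3i replicate 2 had 2.922 CPM of BCL2L14, against 1.603, 1.681 and 1.521 CPM in the others. Control replicate 1 had 51.53 CPM of STAT3, against 41.98, 42.07 and 43.61 CPM in the others, and every MARK3i library was higher still.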

How the results depend on the processing

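Of the 34 named genes called, 28 kept their call in all 18 alternatives and 0 reversed. The count of members called higher was 1 in place of 2 with RLE scaling, no filter, DESeq2 and the replicate block, and ranged from 1 to 2 when 1 library was left out. The replicate block thus ended the call of BCL2L11 (adjusted p = 0.0548). Same-numbered libraries were not paired by their deviations from the group means (correlations 0.131, −0.088, −0.053 and 0.084). These deviations did correlate positively between MARK3i replicates 1 and 3 and Control replicates 1 and 2 (0.027 to 0.131). The same held between MARK3i replicates 2 and 4 and Control replicates 3 and 4 (0.084 to 0.129). The remaining pairs were negative (−0.161 to −0.053). The block by replicate number does not follow this split, and its part in the results was not tested. The other lists had 10 genes lower with total counts, against 16 with TMM. Changes near 0 switched sign without passing. BCL2L2 was 0.084 with total counts, 0.021 with GC offsets and 0.022 with GC offsets and block. BAD was −0.010 with RLE scaling, −0.005 with no filter and −0.012 with DESeq2. BCL2L12 was 0.071 with total counts and 0.057 with GC offsets, with or without the block. With 1 library left out, the ranges were −0.040 to 0.100 for BCL2L1, −0.060 to 0.014 for BCL2L2, −0.046 to 0.039 for BAD and −0.089 to 0.011 for BCL2L12. The cause was not tested.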
